A study of Mus musculus with 12 samples.

Results

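The kinesin family was taken as every protein-coding row of the deposited count table whose gene symbol begins with Kif or Kifc followed by a digit. This rule found 42 of the 55421 genes of the table, and 40 of them passed the low-count filter and were tested. The rule used no measured value. The members were divided by role into 13 mitotic kinesins, 17 transport kinesins and 12 other members, with earlier results of these data known. Kif2a and Kif2b, of the kinesin-13 family like the mitotic member Kif2c, were placed with the other members. One of the other members, Kif1bp, encodes a kinesin-binding protein that is not itself a motor, and Kif12 and Kif2b had 0 counts in every library, which allows up to 3 counts. Cenpe, a mitotic kinesin whose symbol lies outside the rule, is given with the partner genes.

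Kinesins are motor proteins that use ATP to walk along microtubules or to take their ends apart. Mitotic kinesins slide spindle microtubules apart, align chromosomes, trim microtubule ends and build the central spindle at which a dividing cell is cut, and their transcripts are known to peak in G2 and M phase of proliferating cells. Transport kinesins carry vesicles, mitochondria, endosomes and ciliary cargo along microtubules, mostly towards their plus ends, through most of the life of a cell, and some of them are best known from neurons.

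The libraries came from MOC2, a mouse oral cancer cell line that the labels give as a squamous cell carcinoma, grown in culture. The 4 groups of 3 libraries each crossed an extracellular vesicle (EV) label with a treatment. EV-proficient cells were the derivative MOC2-25 and EV-deficient cells the derivative MOC2-27, in which a genetic block stops the release of vesicles. The gene that was blocked is not named in the labels. Each EV label was thus carried by 1 derivative line, and the effect of the block and that of the line cannot be told apart. Paclitaxel, a drug that binds and stabilises microtubules, was given at 600 nM for 48 h to induce senescence, and control cells received DMSO, the solvent. Polyadenylated RNA was sequenced from stranded libraries. Nothing in the labels says that the replicates of a group were separate cultures, so the p-values measure only the spread between these samples.

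Library totals ran from 23263472 to 62955757 counts, and 3 counts, taken as the floor, were worth 0.0492 to 0.121 CPM depending on the library. CPM are counts scaled to a common library size. Such floors cover counting error only. Libraries with the same EV label did not lie together on the second axis of variation. On the second principal component of all tested genes the EV-proficient DMSO libraries (27.2 to 36.5) lay beside the EV-deficient paclitaxel libraries (34.2 to 43.5). On the same component the EV-deficient DMSO libraries (-24.7 to -20.5) lay beside the EV-proficient paclitaxel libraries (-64.6 to -37.9). A row that the authors added for a dngfr sequence divided the libraries in the same way. It was at 5.73 to 12.2 CPM in EV-proficient DMSO and 9.63 to 12.4 CPM in EV-deficient paclitaxel libraries. It was at 1.89 to 2.54 CPM in EV-deficient DMSO and 2.47 to 3.76 CPM in EV-proficient paclitaxel libraries. The labels do not say which line carries that sequence. Whether the EV labels of a treatment were exchanged was not tested. Fold changes within an EV label, differences between labels and interactions would all change if they were, so each is that of the libraries as labelled. Comparisons of treatments that do not use the EV label are given beside them. The mitochondrial share of counts was 0.55% to 0.729% in DMSO libraries, 0.846% to 0.907% in EV-proficient paclitaxel and 1.07% to 1.45% in EV-deficient paclitaxel libraries. Of 7 squamous epithelial markers, Krt14 (80.0 to 681 CPM as group means), Krt17, Epcam, Cdh1 and Itgb4 were high, while Krt5 and Trp63 were at or under 0.142 CPM in every group mean. Markers of other cells were low but differed between groups. The summed level of 3 fibroblast markers was 1.34 to 3.16 CPM in DMSO and 5.06 to 7.83 CPM in paclitaxel libraries. That of 3 endothelial markers was 1.69 to 2.49 and 2.55 to 4.26 CPM. Summed levels of 5 immune markers (mostly Csf1r) ran from 1.32 to 13.5 CPM over the 12 libraries. Their means were 1.38 CPM in EV-proficient DMSO, 13.3 in EV-deficient DMSO, 12.7 in EV-proficient paclitaxel and 6.20 in EV-deficient paclitaxel libraries. The part of these markers in the kinesin values was not tested. In bulk RNA, fewer cells of a kind and less RNA per cell cannot be told apart.

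Promoter sequences are shown first. Mitotic kinesins are known to share a short promoter element, the cell-cycle genes homology region (CHR). Its part in the changes of these transcripts was not tested. RefSeq promoter windows of the build GRCm38.p6 (250 bases before to 50 after a start) were found for 33 of the 42 members. Of the mitotic members only Kif20a had none. The letters TTTGAA, searched on both strands, were in 11 of 12 windows of mitotic kinesins (91.7%), in 1 of 13 windows of 11 transport kinesins (7.69%), in 2 of 12 windows of 10 other members (16.7%) and in 17.9% of all 32851 windows. CCAAT was in 8 of 12 mitotic, 4 of 13 transport and 5 of 12 other windows, against 37.4% of all windows. Both were in 8 of 12 mitotic (66.7%) and 0 of 13 transport windows and in 2 of 12 other windows (16.7%, Kif26b and Kif27), against 6.95% of all windows. GCGGGAA, the core letters recognised by E2F factors, was in 0 mitotic, 0 transport and 2 of 12 other windows (Kif2a and Kif6). It was in 4.6% of all windows. The motif letters do not overlap one another. Kif15, Kif20b and Kif2c had TTTGAA without CCAAT. The TTTGAA of Kif14 began at base -228 from the start and that of Kif2c at base -103. A match is a description of the letters and not of a bound site.

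The following windows of 150 bases, from 120 bases before to 30 bases after the start, show examples with these letters and a window without them. Capitals mark TTTGAA or CCAAT, or their complements TTCAAA and ATTGG. Kif11, Kif18b, Kif23 and Kifc1 carry both motifs near the start. Kif18a, picked out after its values were seen, is the mitotic window without TTTGAA. It is a single gene, and no link between its letters and its fold changes was tested.
Kif11 (chr19:37376262-37376411, plus strand): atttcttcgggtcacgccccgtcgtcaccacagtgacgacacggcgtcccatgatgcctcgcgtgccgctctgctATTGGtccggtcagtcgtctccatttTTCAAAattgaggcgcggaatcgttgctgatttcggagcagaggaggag
Kif18b (chr11:102925095-102925244, minus strand): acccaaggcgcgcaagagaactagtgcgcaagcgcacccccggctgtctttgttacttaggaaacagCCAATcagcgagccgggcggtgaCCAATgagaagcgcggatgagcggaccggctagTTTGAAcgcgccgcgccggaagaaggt
Kif23 (chr9:61946770-61946919, minus strand): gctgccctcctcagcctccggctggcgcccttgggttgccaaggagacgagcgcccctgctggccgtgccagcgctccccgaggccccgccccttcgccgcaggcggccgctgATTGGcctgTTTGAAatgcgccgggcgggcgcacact
Kifc1 (chr17:33890604-33890753, minus strand): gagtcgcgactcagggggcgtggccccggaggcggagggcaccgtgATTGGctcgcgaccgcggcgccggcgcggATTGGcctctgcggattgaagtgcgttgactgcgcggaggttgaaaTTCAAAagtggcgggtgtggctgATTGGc
Kif18a (chr2:109280618-109280767, plus strand): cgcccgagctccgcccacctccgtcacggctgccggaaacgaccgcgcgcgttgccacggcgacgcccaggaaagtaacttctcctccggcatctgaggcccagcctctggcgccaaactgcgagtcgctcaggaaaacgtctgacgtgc

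Levels between genes were compared as CPM per kilobase of exon (RPKM), and this paragraph gives levels in EV-proficient DMSO libraries as mean ± SD (n = 3). Kif1c, a transport kinesin of the kinesin-3 family, stood highest at 57.1 ± 2.9. It was followed by Kif20a, the motor that brings the chromosomal passenger complex to the central spindle, at 45.3 ± 1.9 and by Kif5b, the ubiquitous conventional kinesin heavy chain, at 43.7 ± 0.97. The spread of Kif20a and Kif5b overlapped, so their order is not resolved. Kif23, a subunit of centralspindlin, followed at 35.2 ± 0.77 and Kif18b, which shortens microtubules with Kif2c, at 32.0 ± 0.79. The mitotic members Kif20b (26.4 ± 1.7), Kif11 (24.6 ± 1.1), Kif22 (22.4 ± 0.86), Kifc1 (22.2 ± 1.6), Kif2c (21.5 ± 1.0) and Kif4 (18.1 ± 0.33) came next. Among these, Kif20b and Kif11, and then Kif22, Kifc1 and Kif2c, did not differ from their neighbours beyond their spread. The other 4 mitotic members, Kif14, Kifc5b, Kif15 and Kif18a, lay between 3.27 and 5.72. Kif3a (13.3 ± 0.20) and Kif3b (12.4 ± 0.11), the motor subunits of heterotrimeric kinesin-2, led the remaining transport members, and the lowest transport members were Kifc2 (0.406 ± 0.028), Kif17 (0.398 ± 0.094), Kif5a (0.153 ± 0.042), Kif1a (0.0729 ± 0.022) and Kif21b (0.0527 ± 0.0083), of which neither Kifc2 and Kif17 nor Kif1a and Kif21b were resolved.

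The summed level of the 13 mitotic kinesins was lower in every paclitaxel library than in every DMSO library. It ran from 1455 to 1537 CPM in EV-proficient DMSO, from 1480 to 1534 in EV-deficient DMSO, from 1112 to 1147 in EV-proficient paclitaxel and from 846 to 1032 CPM in EV-deficient paclitaxel libraries. The summed level of the 17 transport kinesins ran from 1217 to 1281, 1138 to 1164, 1194 to 1218 and 1156 to 1200 CPM in the same order. The transport sum thus overlapped between treatments, and most of it was Kif1c and Kif5b.

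**Figure D1:**
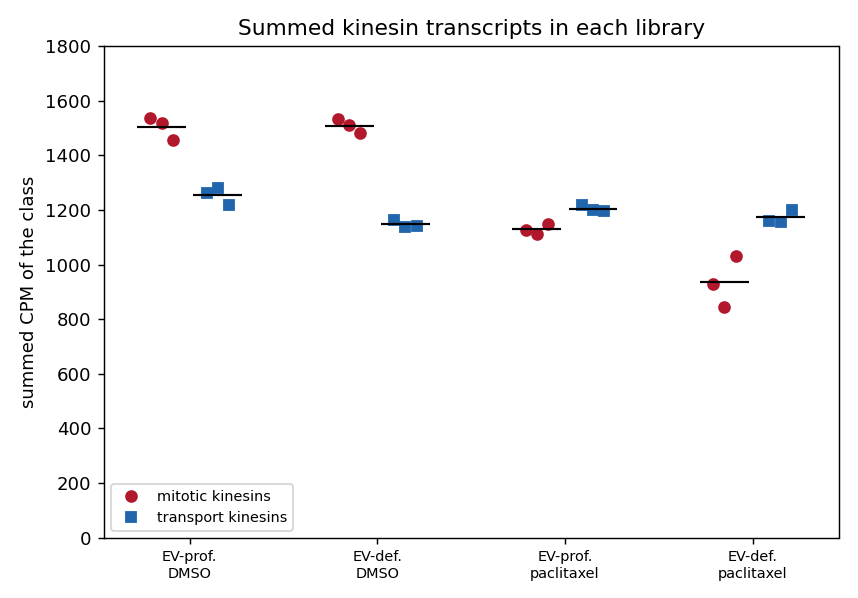
Summed CPM of the 13 mitotic kinesins (red circles) and of the 17 transport kinesins (blue squares) in each of the 12 libraries by group, with black lines at the group means (n = 3). The mitotic sums of the paclitaxel libraries, 846 to 1147 CPM, all lie under those of the DMSO libraries, while the transport sums overlap.

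The first comparison set paclitaxel against DMSO within each EV label and asks how motor transcripts differed after the drug that was used to induce senescence. The listed mitotic kinesins fell nearly as a block. That class leaves out Kif2a, which was not called in EV-proficient cells and fell in EV-deficient cells. In the cells labelled EV-proficient 11 of 13 fell and 0 rose, and in those labelled EV-deficient 12 of 13 fell and 0 rose. The median log2 fold changes of the class were -0.38 and -0.81, against 0.05 and 0.07 over all genes tested. Calls use edgeR's quasi-likelihood test with Benjamini-Hochberg adjustment over 18108 genes and a threshold of 0.05. Each SE was worked back from the log2 fold change and the F statistic of that test. It rests on a spread shared by all 12 libraries and is not an error of the groups compared alone. In EV-proficient cells that test called 58.2% of all genes (31.1% higher, 27.1% lower), and in EV-deficient cells 62.9% (32.4% higher, 30.5% lower). Without use of the EV label, 11 of the 13 mitotic kinesins were lower in all 6 paclitaxel libraries than in all 6 DMSO libraries, where 18.5% of all genes tested were so placed. The mitochondrial share was higher in the same libraries, up to 1.45% in EV-deficient paclitaxel, and its part in these falls was not tested.

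Values in every library are given for 6 mitotic motors that act on spindle microtubules and in cytokinesis. Kif18b was at 113, 118 and 113 CPM in the EV-proficient DMSO libraries and at 90.1, 99.2 and 93.2 under paclitaxel. In EV-deficient cells it was at 132, 122 and 127 CPM under DMSO and at 53.6, 52.3 and 62.6 under paclitaxel. The paclitaxel libraries were below the DMSO libraries under both labels without overlap, and the EV-deficient paclitaxel libraries were lowest of all. Its log2 fold changes were -0.28 ± 0.069 SE in EV-proficient cells (edgeR adjusted p 0.00148) and -1.18 ± 0.070 SE in EV-deficient cells (edgeR adjusted p 4.71e-12).

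Kif20a was at 201, 202 and 187 CPM and fell to 119.8, 118 and 127 in EV-proficient cells, and from 215, 214 and 201 to 93.6, 84.4 and 109 CPM in EV-deficient cells. All 6 paclitaxel libraries lay under all 6 DMSO libraries. The log2 fold changes were -0.69 ± 0.074 SE and -1.13 ± 0.075 SE (edgeR adjusted p 5.91e-08 and 2.34e-11). Of the exon bases of Kif20a, 29.3% overlap those of Cdc23 on the opposite strand, and whether strand was used in counting is not given in the sources used here. Cdc23 had log2 fold changes of -0.09, not called, and -0.58, called, and reads of the overlap cannot be assigned to either gene if strand was not used.

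Kif4, a chromokinesin that binds the central spindle protein Prc1, was at 102, 98.8 and 98.7 CPM in EV-proficient DMSO and 55.6, 54.2 and 52.0 in EV-proficient paclitaxel libraries. It was at 98.0, 98.9 and 95.7 CPM in EV-deficient DMSO and 55.2, 45.6 and 65.7 in EV-deficient paclitaxel libraries. Kif4 had the lowest log2 fold change of all members in EV-proficient cells, -0.89 ± 0.089 SE, and in EV-deficient cells it fell as well, -0.81 ± 0.088 SE (edgeR adjusted p 2.13e-08 and 4.89e-08). The paclitaxel libraries of both labels overlapped each other and lay under all DMSO libraries. Of its exon bases 15.1% overlap Pdzd11 on the opposite strand, which was not called in EV-proficient cells (-0.20) and fell in EV-deficient cells (-0.45). Kif14, a cytokinesis motor that binds citron kinase, was at 61.4, 55.0 and 61.2 CPM under DMSO and 44.6, 42.6 and 42.0 CPM under paclitaxel in EV-proficient cells. The values in EV-deficient cells were 62.95, 67.1 and 62.2 CPM under DMSO and 33.9, 33.1 and 36.5 CPM under paclitaxel. It fell under both labels without overlap, with log2 fold changes of -0.46 ± 0.069 SE and -0.89 ± 0.069 SE.

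Kifc1, a minus-end-directed motor that focuses spindle poles, was at 71.6, 81.8 and 73.5 CPM under DMSO and 55.5, 65.0 and 53.4 under paclitaxel in EV-proficient cells. EV-deficient cells had 82.0, 73.9 and 77.1 CPM under DMSO and 38.5, 33.6 and 45.6 under paclitaxel. Its log2 fold changes, -0.38 ± 0.094 SE and -0.98 ± 0.094 SE, were called under both labels. Kifc5b, its close copy, was at 20.6, 21.01 and 20.3 CPM under DMSO and 22.1, 25.3 and 16.8 under paclitaxel in EV-proficient cells, and at 28.2, 26.1 and 28.9 CPM under DMSO and 10.6, 13.6 and 13.98 under paclitaxel in EV-deficient cells. The EV-proficient groups overlapped, with 0.066 ± 0.12 SE, not called, and the EV-deficient groups did not, with -1.13 ± 0.12 SE (edgeR adjusted p 4.75e-08). Of the 50-base words of Kifc5b transcripts, 36.6% also occur in Kifc1 transcripts, so the division of reads between these copies is uncertain.

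The remaining mitotic members included both large and small falls. Kif23 went from 278 ± 6.1 to 193 ± 3.1 CPM in EV-proficient and from 241 ± 0.54 to 168 ± 14 CPM in EV-deficient cells (SD, n = 3 each), with log2 fold changes of -0.53 ± 0.061 SE and -0.52 ± 0.060 SE. Kif15, which helps keep spindles bipolar, went from 55.4 ± 5.3 to 39.4 ± 3.1 and from 56.9 ± 3.3 to 32.2 ± 6.2 CPM. Kif22, which pushes chromosome arms away from the poles, went from 109.9 ± 4.2 to 83.1 ± 3.5 and from 106 ± 1.4 to 70.2 ± 5.4 CPM. Both fell under both labels, Kif15 with log2 fold changes of -0.49 ± 0.11 SE and -0.82 ± 0.11 SE and Kif22 with -0.40 ± 0.064 SE and -0.60 ± 0.064 SE. Kif20b, a cytokinesis motor, went from 184 ± 12 to 148 ± 11 and from 179 ± 3.8 to 145 ± 14 CPM, with log2 fold changes of -0.32 ± 0.073 SE and -0.31 ± 0.072 SE. Kif2c, which takes microtubule ends apart at centromeres, went from 93.8 ± 4.6 to 80.6 ± 4.9 and from 99.5 ± 2.8 to 67.0 ± 5.8 CPM. Kif11, the motor that slides spindle poles apart, went from 183 ± 8.1 to 163 ± 12 and from 188 ± 7.3 to 131 ± 9.0 CPM. These last motors also fell under both labels, Kif2c with -0.22 ± 0.070 SE and -0.57 ± 0.069 SE and Kif11 with -0.17 ± 0.067 SE and -0.52 ± 0.066 SE.

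Kif18a, which dampens chromosome oscillation at the metaphase plate, was the only mitotic member without a call under either label. It was at 34.7, 31.8 and 30.03 CPM under DMSO and 30.2, 28.5 and 32.8 under paclitaxel in EV-proficient cells. The values in EV-deficient cells were 32.96, 32.5 and 31.4 CPM under DMSO and 28.3, 24.4 and 32.9 under paclitaxel. These ranges overlapped, and the log2 fold changes were -0.080 ± 0.095 SE and -0.18 ± 0.093 SE (edgeR adjusted p 0.488 and 0.103). It was called lower in EV-deficient cells without EV-deficient paclitaxel replicate 3 (-0.30) and without the low-count filter (-0.22). The small falls in EV-proficient cells were less firm, since Kif11 lost its call without EV-proficient DMSO replicate 1 (-0.14), without the low-count filter (-0.15) and under upper-quartile scaling (-0.11), and Kif2c without EV-proficient DMSO replicate 2 (-0.19). In EV-deficient cells Kif20b lost its call with upper-quartile scaling (-0.12), a scaling that moved the median of all genes there from 0.07 to 0.26.

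**Figure D2:**
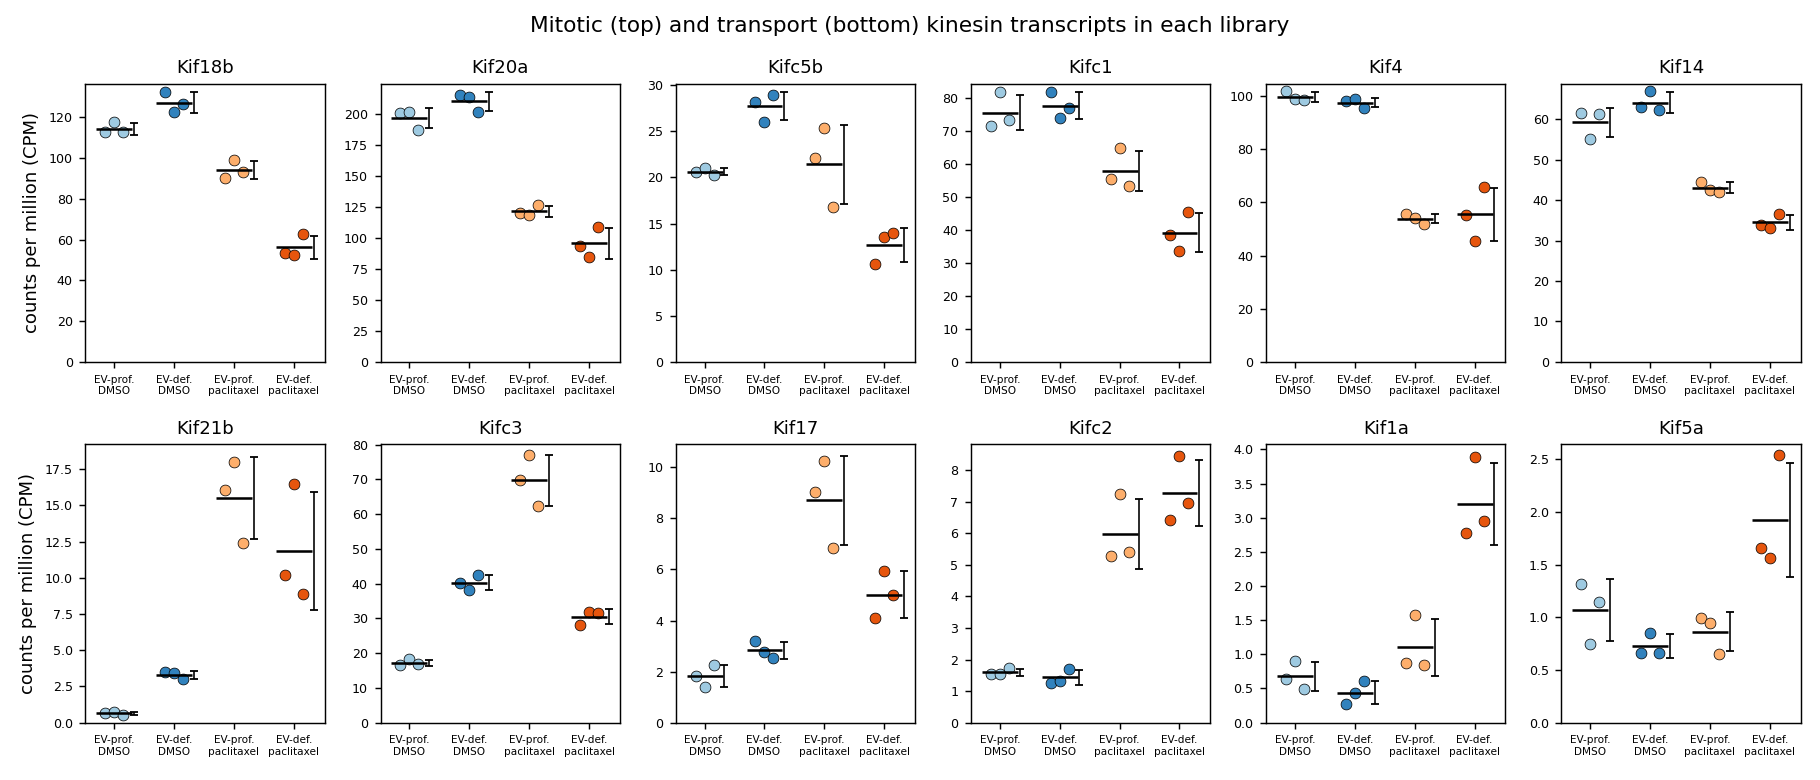
CPM of 6 mitotic kinesins (top) and 6 transport kinesins (bottom) in each of the 12 libraries, as points by group, with a line at the mean and a bar of 1 SD (n = 3) beside it, on linear axes from 0. Kif18b, Kif20a, Kifc1, Kif4 and Kif14 are lower in every paclitaxel library than in every DMSO library, and Kif21b, Kif17 and Kifc2 are higher.

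Transport kinesins did not move as a class in EV-proficient cells, and in EV-deficient cells most of them rose. In the cells labelled EV-proficient 7 of 17 rose, 2 fell and 8 were not called, and in those labelled EV-deficient 13 rose, 2 fell and 2 were not called. The class medians were 0.09 and 0.37, against 0.05 and 0.07 over all genes tested. The 9 calls of 17 in EV-proficient cells are near the 58.2% called over all genes. Without use of the EV label, 6 of the 17 were higher in all 6 paclitaxel libraries than in all 6 DMSO libraries, where 18.3% of all genes tested were so placed, and Kif1c was lower. The EV-proficient median depended on a library, since it was 0.0085 without EV-proficient paclitaxel replicate 1, and on the scaling (0.15 with upper-quartile scaling).

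Kif21b, a kinesin-4 motor that also slows microtubule growth (chromosome 1, 136131389 to 136177998, plus strand), had the largest change of all members in EV-proficient cells, while in EV-deficient cells Kif1a, Kif6, Kifc2 and Kif27 had larger ones. It was at 0.682, 0.718 and 0.527 CPM in EV-proficient DMSO and 16.1, 17.98 and 12.4 CPM in EV-proficient paclitaxel libraries. In EV-deficient cells it was at 3.46, 3.44 and 2.98 CPM under DMSO and 10.2, 16.5 and 8.88 CPM under paclitaxel. The DMSO libraries of both labels lay under all paclitaxel libraries, with the EV-proficient DMSO libraries lowest. The log2 fold changes were 4.58 ± 0.24 SE (edgeR adjusted p 1.75e-12) and 1.84 ± 0.19 SE (edgeR adjusted p 3.26e-08).

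Kifc3, a minus-end-directed motor known from epithelial cell junctions (chromosome 8, 95099828 to 95202812, minus strand), changed in opposite directions under the labels as given. In EV-proficient cells it went from 16.7, 18.3 and 16.9 CPM under DMSO to 69.8, 77.0 and 62.4 CPM under paclitaxel. In EV-deficient cells it went from 40.1, 38.3 and 42.5 CPM to 28.0, 31.8 and 31.6 CPM. Neither pair of groups overlapped, and the log2 fold changes were 2.02 ± 0.086 SE and -0.40 ± 0.082 SE (edgeR adjusted p 9.14e-14 and 0.000207).

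Kif1b, a carrier of mitochondria and synaptic vesicle precursors, also changed in opposite directions under the labels as given. It went from 139.6, 124 and 125 to 101, 95.2 and 94.2 CPM in EV-proficient cells and from 99.7, 108 and 102 to 126, 128 and 147 CPM in EV-deficient cells, log2 fold changes of -0.42 ± 0.070 SE and 0.37 ± 0.069 SE. The groups did not overlap within either label. Kif1c fell under both labels, from 402, 440.3 and 405 to 255, 281 and 249.8 CPM and from 369, 348 and 365 to 233, 220.4 and 262 CPM. All 6 paclitaxel libraries lay under all 6 DMSO libraries, with log2 fold changes of -0.66 ± 0.068 SE and -0.60 ± 0.068 SE.

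Kif3c, a kinesin-2 subunit, rose from 34.4, 36.7 and 35.1 to 53.6, 59.4 and 51.9 CPM in EV-proficient and from 31.5, 30.7 and 27.5 to 47.8, 53.8 and 41.1 CPM in EV-deficient cells. Every paclitaxel library was above every DMSO library, and the log2 fold changes were 0.64 ± 0.088 SE and 0.67 ± 0.088 SE. Of the exon bases of Kif3c, 35.3% overlap 1110002L01Rik on the opposite strand, which was not called in either comparison (0.08 and -0.12). Kif5c, a conventional kinesin heavy chain, rose from 11.4, 11.2 and 10.2 to 13.99, 14.6 and 13.5 CPM and from 12.6, 11.2 and 11.6 to 19.0, 17.8 and 20.8 CPM, by 0.36 ± 0.10 SE and 0.70 ± 0.097 SE. Kif3a, which pairs with Kif3b, rose from 47.6 ± 0.72 to 64.8 ± 1.3 and from 48.1 ± 0.41 to 63.3 ± 3.4 CPM, by 0.44 ± 0.062 SE and 0.39 ± 0.062 SE. None of these rises had overlapping groups.

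Transport motors of low level were among those with large fold changes, and they are named here after their values were seen because their means were under 5 CPM. Kif17, a homodimeric kinesin-2, was at 1.83, 1.39 and 2.25 CPM under DMSO and 9.03, 10.3 and 6.84 under paclitaxel in EV-proficient cells, and at 3.21, 2.75 and 2.54 CPM under DMSO and 4.08, 5.93 and 5.00 under paclitaxel in EV-deficient cells. Kifc2, a minus-end-directed motor best known from neurons, was at 1.53, 1.53 and 1.73 CPM under DMSO and 5.28, 7.26 and 5.42 under paclitaxel in EV-proficient cells, and at 1.25, 1.33 and 1.71 CPM under DMSO and 6.43, 8.46 and 6.97 under paclitaxel in EV-deficient cells. Both were higher in every paclitaxel library than in every DMSO library, Kif17 by 2.27 ± 0.21 SE and 0.81 ± 0.19 SE and Kifc2 by 1.91 ± 0.19 SE and 2.35 ± 0.19 SE. Of the exon bases of Kif17, 1.62% overlap Sh2d5 on the same strand, and the part of that overlap in the Kif17 values was not tested. Kif1a, the axonal carrier of synaptic vesicle precursors, was at 0.633, 0.909 and 0.498 CPM under DMSO and 0.870, 1.58 and 0.8496 under paclitaxel in EV-proficient cells, and at 0.268, 0.438 and 0.614 CPM under DMSO and 2.78, 3.89 and 2.95 under paclitaxel in EV-deficient cells. Kif5a, the neuronal conventional kinesin, was at 1.32, 0.742 and 1.14 CPM under DMSO and 0.988, 0.949 and 0.647 under paclitaxel in EV-proficient cells, and at 0.660, 0.855 and 0.658 CPM under DMSO and 1.66, 1.56 and 2.54 under paclitaxel in EV-deficient cells. Both rose in EV-deficient cells without overlap (2.87 ± 0.34 SE and 1.41 ± 0.31 SE), and in EV-proficient cells their groups overlapped without a call (0.71 ± 0.34 SE and -0.28 ± 0.32 SE). Kif1a was called higher there without EV-proficient DMSO replicate 2 (0.98). The summed level of 5 neuronal markers ran from 60.5 to 68.6 CPM in EV-proficient DMSO, 78.6 to 84.6 in EV-deficient DMSO, 32.96 to 39.6 in EV-proficient paclitaxel and 43.8 to 47.5 CPM in EV-deficient paclitaxel libraries, and Rbfox3 was at or under 0.0593 CPM in every group mean. In the same order Tubb3, the highest of them, was at 48.2, 69.4, 24.2 and 25.5 CPM, Map2 at 16.7, 10.6, 10.7 and 17.96 CPM and Snap25 at 0.468, 0.465, 1.73 and 2.06 CPM. Of the 4 tested neuronal markers 1 was called higher and 2 lower under paclitaxel in EV-proficient cells, and 3 higher and 1 lower in EV-deficient cells, with medians of 0.21 and 1.16. The part of these markers in the values of the neuronal kinesins was not tested.

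The other transport members had small log2 fold changes under paclitaxel, called or not. In EV-deficient cells Kif3b went from 60.9 ± 2.5 to 76.8 ± 0.91, Kif13a, an endosome motor, from 41.0 ± 1.6 to 51.0 ± 6.7, Kif16b, an early endosome motor, from 38.0 ± 2.0 to 45.1 ± 2.5 and Kif5b from 321 ± 6.3 to 360.3 ± 9.4 CPM (SD, n = 3 each). These 4 rose, by 0.33 ± 0.063 SE, 0.32 ± 0.085 SE, 0.25 ± 0.069 SE and 0.17 ± 0.063 SE. In EV-proficient cells they were not called, with Kif3b at 69.8 ± 0.60 and 68.2 ± 4.8, Kif13a at 48.3 ± 4.4 and 49.9 ± 1.7, Kif16b at 46.9 ± 0.99 and 42.8 ± 1.8 and Kif5b at 348 ± 7.7 and 371 ± 36 CPM. Kif13b was at 28.3 ± 1.7, 33.4 ± 0.16, 28.9 ± 3.0 and 29.3 ± 2.6 CPM in EV-proficient DMSO, EV-deficient DMSO, EV-proficient paclitaxel and EV-deficient paclitaxel libraries. Kif21a was at 49.4 ± 5.2, 50.9 ± 1.8, 49.0 ± 0.43 and 47.8 ± 0.98 CPM in that order, and neither was called in any comparison. Kif13b, at -0.19 ± 0.086 SE under paclitaxel in EV-deficient cells and 0.24 ± 0.086 SE between labels under DMSO, gained a call in 6 alternatives each (-0.26 to -0.20 and 0.21 to 0.30). The rise of Kif5b lost its call without the low-count filter (0.13) and without any of EV-deficient DMSO replicates 1, 2 and 3 or EV-deficient paclitaxel replicate 1 (0.14 to 0.17), and that of Kif16b without EV-deficient DMSO replicate 3 (0.19). In EV-proficient cells Kif16b (-0.13 ± 0.070 SE) was called lower without any of EV-proficient paclitaxel replicates 1 and 2 or EV-deficient paclitaxel replicates 1, 2 and 3 (-0.20 to -0.18).

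**Figure D3:**
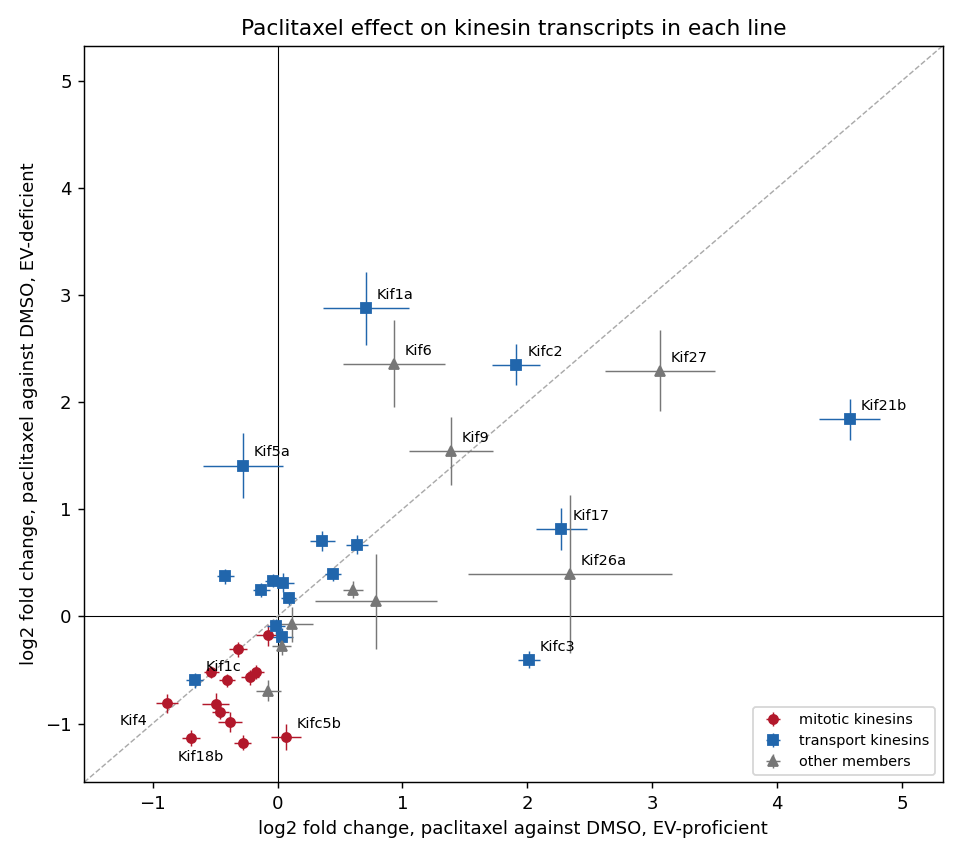
Log2 fold change of each tested kinesin under paclitaxel against DMSO in EV-proficient cells (horizontal axis) and in EV-deficient cells (vertical axis), with bars of 1 SE, by class; the dashed line marks equal effects and Kif19a is left out because its counts were at the floor in a group. Of the 13 mitotic kinesins 12 lie below 0 on both axes, and Kif21b is farthest to the right at 4.58.

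Among the other members, Kif27 and Kif9, which are known from motile cilia, rose under both labels from low levels. Kif27 was at 0.146, 0.215 and 0.205 CPM under DMSO and 2.37, 1.62 and 0.647 under paclitaxel in EV-proficient cells, and at 0.517, 0.271 and 0.482 CPM under DMSO and 1.94, 1.97 and 2.38 under paclitaxel in EV-deficient cells. Kif9 was at 0.439, 0.574 and 0.732 CPM under DMSO and 1.68, 1.51 and 1.34 under paclitaxel in EV-proficient cells, and at 0.464, 0.813 and 0.504 CPM under DMSO and 1.96, 1.17 and 2.05 under paclitaxel in EV-deficient cells. Both were higher in every paclitaxel library than in every DMSO library, Kif27 by 3.06 ± 0.44 SE and 2.29 ± 0.38 SE and Kif9 by 1.39 ± 0.33 SE and 1.54 ± 0.32 SE. Kif6, another motor of motile cilia, was at 0.244, 0.527 and 0.293 CPM under DMSO and 0.791, 0.703 and 0.526 under paclitaxel in EV-proficient cells, where its groups overlapped without a call (0.93 ± 0.41 SE). It was called higher there without EV-proficient DMSO replicate 2 (1.35) or EV-proficient paclitaxel replicate 3 (1.02), with upper-quartile scaling (1.00) and with a filter of 1 CPM in 3 libraries (0.95). In EV-deficient cells it rose from 0.232, 0.167 and 0.329 CPM to 1.19, 1.15 and 1.41 CPM (2.36 ± 0.40 SE). Foxj1, the regulator of motile ciliogenesis, was at 0.565 ± 0.15, 2.35 ± 0.29, 8.47 ± 0.62 and 3.05 ± 0.43 CPM in EV-proficient DMSO, EV-deficient DMSO, EV-proficient paclitaxel and EV-deficient paclitaxel libraries (SD, n = 3 each). The summed level of 5 motile cilia markers ran from 1.405 to 1.73, 2.73 to 3.75, 9.93 to 10.8 and 5.17 to 7.03 CPM in that order. Dnah5, an outer dynein arm motor, was at 0.269, 0.377, 0.614 and 0.840 CPM and Ccdc39, needed for axoneme assembly, at 0.662, 0.574, 1.06 and 2.10 CPM. Of the 4 tested markers 2 were called higher and 0 lower in each paclitaxel comparison, with medians of 1.00 and 1.52, and Tekt1 and Rsph1 were at or under 0.193 CPM in every group mean. Their part in the kinesin values was not tested.

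In all, 4 of the 10 tested other members rose in EV-proficient cells and 0 fell, and 4 rose and 2 fell in EV-deficient cells, with class medians of 0.86 and 0.32. These counts lie at or below the 58.2% and 62.9% called over all genes. Kif1bp, which holds certain kinesins off microtubules, rose from 19.0 ± 0.65 to 28.9 ± 0.36 and from 22.2 ± 0.16 to 26.4 ± 2.0 CPM, by 0.61 ± 0.079 SE and 0.25 ± 0.077 SE, and the second call was lost without the low-count filter (0.21). Kif26a, which lacks motor activity, rose in EV-proficient cells from 5, 1 and 4 counts to 38, 22 and 4 counts (2.34 ± 0.82 SE), a call lost without EV-proficient DMSO replicate 2 (1.88) or EV-proficient paclitaxel replicate 1 (1.66). A DMSO library of that group lay under the floor of 3 counts, and the lowest paclitaxel library had 4 counts, as did a DMSO library. In EV-deficient cells it had 11, 7 and 12 counts under DMSO and 7, 28 and 5 under paclitaxel, and was not called. Kif2a, a microtubule depolymerase, and Kif24, a centriolar kinesin, fell in EV-deficient cells, from 95.2 ± 3.7 to 78.4 ± 8.3 and from 19.3 ± 1.3 to 11.9 ± 1.4 CPM (-0.28 ± 0.076 SE and -0.69 ± 0.099 SE). In EV-proficient cells they were not called, with Kif2a at 82.0 ± 3.6 and 84.1 ± 6.7 CPM and Kif24 at 17.7 ± 1.3 and 16.8 ± 0.25 CPM. The call of Kif2a was lost with upper-quartile scaling (-0.096). On the opposite strand Dimt1, which also fell in EV-deficient cells (-0.42), overlaps 19.2% of the exon bases of Kif2a, and other genes overlap 19.1% of those of Kif7 and 10.1% of those of Kif1bp. Kif7, the ciliary Hedgehog regulator, was at 4.99 ± 0.14, 5.90 ± 0.10, 5.33 ± 1.4 and 5.62 ± 0.69 CPM in the order EV-proficient DMSO, EV-deficient DMSO, EV-proficient paclitaxel and EV-deficient paclitaxel. Kif26b was at 0.273 ± 0.14, 0.507 ± 0.096, 0.481 ± 0.11 and 0.555 ± 0.13 CPM in that order, and neither was called. Kif19a had 0, 0 and 6, then 0, 2 and 1, then 4, 13 and 7, then 12, 2 and 1 counts in that order, and no fold is given because the EV-deficient DMSO group held 3 counts in all.

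**Figure D4:**
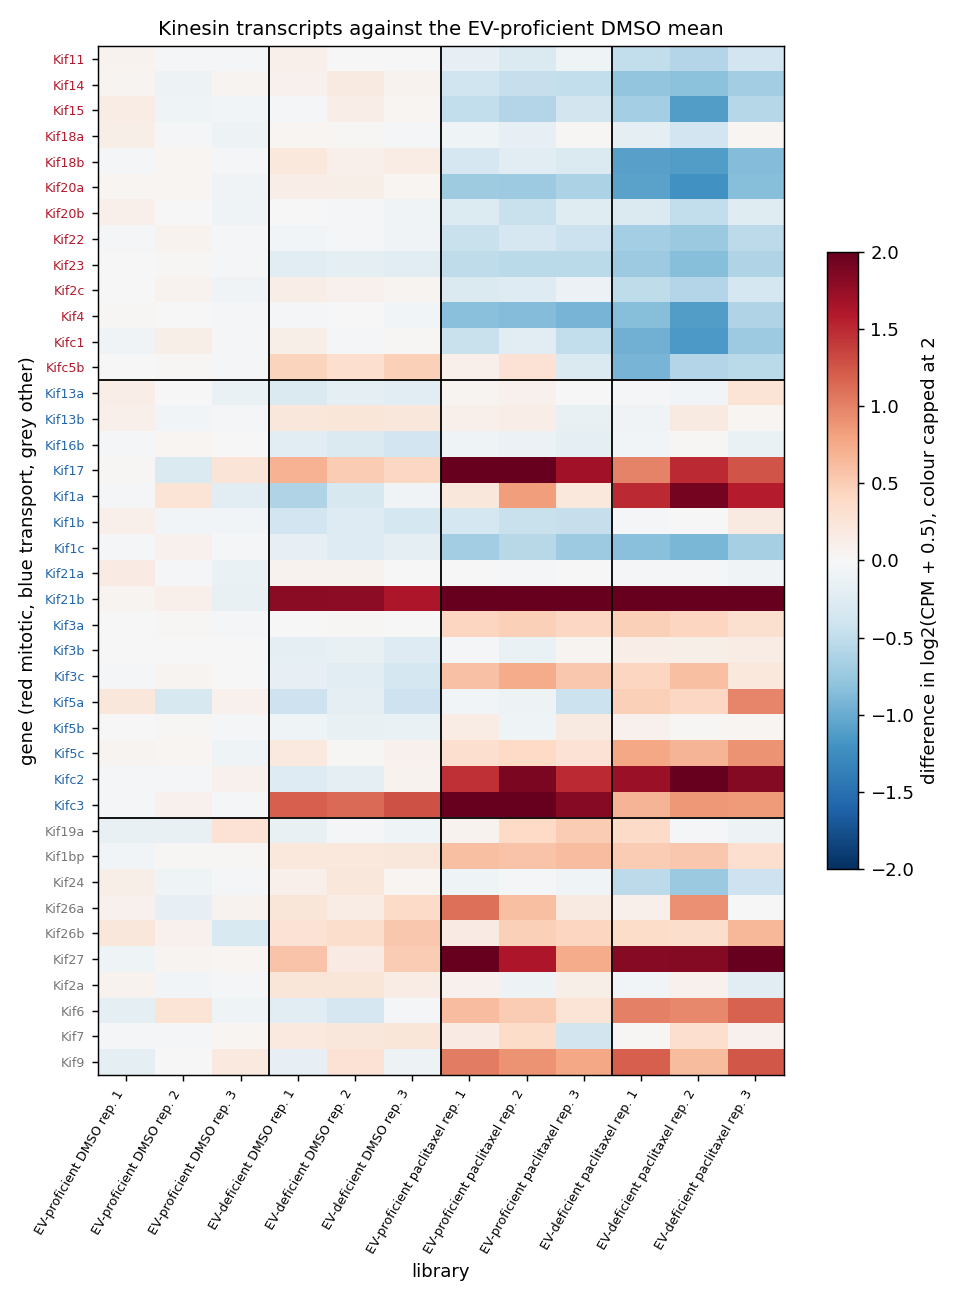
Difference in log2(CPM + 0.5) of each of the 40 tested kinesins (rows, by class) in each of the 12 libraries (columns) from the mean of the EV-proficient DMSO libraries, with the colour capped at 2. The mitotic rows other than Kif18a and Kifc5b are blue across the paclitaxel columns, and the rows of Kif21b and Kifc3 are red in EV-deficient DMSO as well as under paclitaxel.

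The second comparison set EV-deficient against EV-proficient libraries under DMSO, which addresses what the block of vesicle release goes with in cells given DMSO. Among called members the largest differences were higher levels of Kif21b (2.34 ± 0.26 SE), Kifc3 (1.22 ± 0.086 SE) and Kif17 (0.65 ± 0.21 SE) in EV-deficient cells. In all 12 of 40 members were called, 6 higher and 6 lower, in a comparison that called 23.0% of all genes (12.4% higher, 10.6% lower). Of the 13 mitotic kinesins 1 was higher (Kifc5b, 0.43 ± 0.12 SE) and 1 lower (Kif23, -0.21 ± 0.060 SE), with a class median of 0.04. Of the 17 transport kinesins 3 were higher and 5 lower, and the 5 lower ones (Kif1b, Kif1c, Kif3b, Kif13a and Kif16b) differed by between -0.33 and -0.20. Kif3c (-0.24 ± 0.089 SE) was not called, but was called lower in 12 alternatives (-0.28 to -0.24), DESeq2 (-0.26) and both other scalings among them. Kif1bp (0.22 ± 0.079 SE) and Kif2a (0.21 ± 0.076 SE) were higher among the other members. The count of 12 was 5 without EV-proficient DMSO replicate 2, EV-deficient DMSO replicate 1 or EV-deficient DMSO replicate 2, and 6 without EV-deficient DMSO replicate 3. The calls of Kif13a, Kif17, Kif1bp, Kif1c, Kif23, Kif2a and Kif3b were each lost in at least 1 such fit, and with median-of-ratios or upper-quartile scaling the split was 4 higher and 7 lower.

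The third comparison set the EV labels against each other under paclitaxel. There the mitotic kinesins were lower in EV-deficient libraries, 10 of 13 as called and 0 higher, with a class median of -0.28 against -0.0047 over all genes. In all 18 of 40 members were called, 5 higher and 13 lower, in a comparison that called 37.8% of all genes (16.0% higher, 21.8% lower). Kifc5b (-0.76 ± 0.12 SE), Kif18b (-0.75 ± 0.070 SE) and Kifc1 (-0.56 ± 0.095 SE) had the largest mitotic differences, and for each the EV-deficient libraries lay under the EV-proficient ones. Kif20a (-0.34 ± 0.074 SE), Kif14 (-0.32 ± 0.069 SE), Kif11 (-0.31 ± 0.067 SE), Kif2c (-0.26 ± 0.070 SE), Kif22 (-0.24 ± 0.065 SE) and Kif23 (-0.20 ± 0.060 SE) were lower without overlap, and Kif15 (-0.28 ± 0.11 SE) with overlap. The Kif15 call was lost in 9 alternatives, among them DESeq2 (-0.27), limma-voom (-0.28), and the fits without EV-proficient paclitaxel replicate 1 (-0.29), EV-proficient paclitaxel replicate 3 (-0.24) or EV-deficient paclitaxel replicate 2 (-0.13). The Kif23 call was lost without EV-proficient paclitaxel replicate 1 (-0.18) or EV-deficient paclitaxel replicate 2 (-0.13), and in the fit of the paclitaxel groups alone both Kif23 (-0.17) and Kif22 (-0.22) lost theirs. Kif4, Kif20b and Kif18a were not called (0.042 ± 0.088 SE, -0.024 ± 0.073 SE and -0.092 ± 0.094 SE). With upper-quartile scaling 6 mitotic kinesins were called lower, without Kif15 (-0.19), Kif22 (-0.15), Kif23 (-0.10) and Kif2c (-0.17), and the split over all members was 7 higher and 9 lower. Over all genes that scaling turned the balance, with 58.2% of calls higher. Under paclitaxel the mitochondrial share was 0.846% to 0.907% in EV-proficient and 1.07% to 1.45% in EV-deficient libraries. Of 5 tested squamous epithelial markers 3 were called lower and 1 higher in EV-deficient libraries. The part of either in these label differences was not tested.

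Transport kinesins were divided under paclitaxel, with 5 of 17 higher and 2 lower in EV-deficient libraries. Kif1a (1.51 ± 0.31 SE), Kif5a (1.13 ± 0.31 SE), Kif1b (0.46 ± 0.070 SE), Kif5c (0.45 ± 0.097 SE) and Kif3b (0.17 ± 0.063 SE) were higher. Kifc3 (-1.20 ± 0.082 SE) and Kif17 (-0.81 ± 0.19 SE) were lower, the reverse of their differences under DMSO, and in each case the groups did not overlap. Kif21b did not pass the threshold (-0.40 ± 0.18 SE, edgeR adjusted p 0.0857), and it was called lower without EV-deficient paclitaxel replicate 2 (-0.70), without EV-proficient paclitaxel replicate 3 (-0.54), with limma-voom (-0.51) and without the low-count filter (-0.42). Of the other members, Kif24 was lower (-0.50 ± 0.10 SE). The call of Kif3b was lost in 10 of 12 fits without a single library (0.13 to 0.18), in the fit of the paclitaxel groups alone (0.20) and without the low-count filter (0.15).

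**Figure D5:**
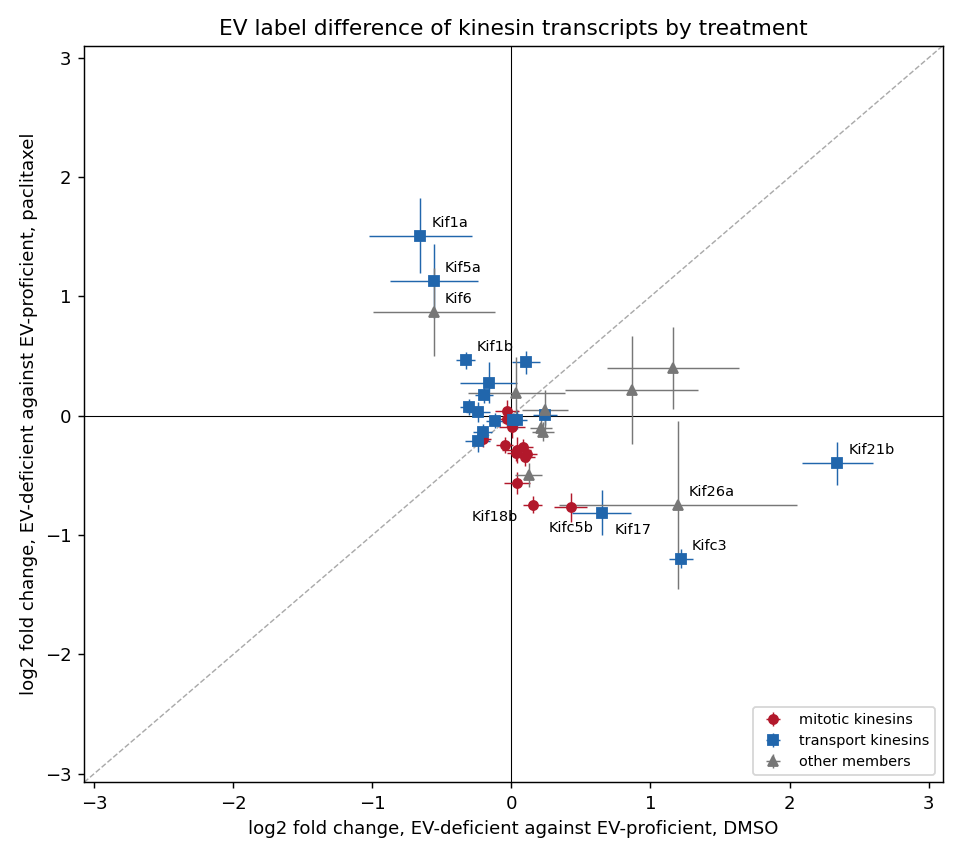
Log2 fold change of each tested kinesin in EV-deficient against EV-proficient libraries under DMSO (horizontal axis) and under paclitaxel (vertical axis), with bars of 1 SE, by class; the dashed line marks equal effects and Kif19a is left out. Kifc3 lies at 1.22 under DMSO and -1.20 under paclitaxel, and Kif1a at -0.65 and 1.51.

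Whether the response to paclitaxel differed between the labels was tested as the interaction, the log2 effect in EV-deficient cells minus that in EV-proficient cells. It was called for 18 of 40 members, 5 positive and 13 negative, where 40.7% of all genes were called (16.9% positive, 23.8% negative). Of the mitotic kinesins 7 of 13 had negative interactions, a lower effect in EV-deficient cells, and 0 positive ones, with a class median of -0.35. Those 7 were Kif2c, Kif11, Kif14, Kif18b, Kif20a, Kifc1 and Kifc5b. Kif4, Kif20b and Kif23, which fell under both labels, had interactions of 0.074 ± 0.12 SE, 0.010 ± 0.10 SE and 0.0097 ± 0.085 SE that did not pass. Kif15 (-0.32 ± 0.15 SE) and Kif22 (-0.19 ± 0.091 SE) did not pass either. Without EV-deficient paclitaxel replicate 2 the interaction of Kif4 was called positive (0.24), and that of Kif15 was called negative in 3 alternatives (-0.42 to -0.39): without the low-count filter, EV-proficient DMSO replicate 1 or EV-deficient paclitaxel replicate 3. Of the transport kinesins 5 had positive interactions (Kif1a, Kif1b, Kif3b, Kif5a and Kif16b) and 3 negative ones (Kif17, Kif21b and Kifc3), and of the other members 3 were negative (Kif1bp, Kif2a and Kif24). Upper-quartile scaling shifted the interaction of the median gene from -0.04 to 0.08, and under it the split was 8 positive and 9 negative, while median-of-ratios scaling gave 8 and 13.

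Genes that work with the kinesins were counted in lists chosen by role. Of 17 spindle and cytokinesis partners 11 fell and 2 rose under paclitaxel in EV-proficient cells, and 16 fell and 1 rose in EV-deficient cells, with medians of -0.23 and -0.50, where 27.1% and 30.5% of all genes fell. Cenpe, the kinetochore kinesin that carries chromosomes to the plate, went from 243 ± 17 to 197 ± 11 CPM in EV-proficient cells and from 241 ± 4.8 to 188 ± 17 CPM in EV-deficient cells, falls with log2 fold changes of -0.30 ± 0.069 SE and -0.36 ± 0.069 SE. Birc5, a subunit of the chromosomal passenger complex, had the lowest values of the list (-1.05 ± 0.086 SE and -1.38 ± 0.087 SE), and Nusap1, which bundles spindle microtubules, the highest (0.58 ± 0.065 SE and 0.78 ± 0.064 SE). Between the EV labels 2 partners were higher and 1 lower under DMSO, and 0 higher and 11 lower under paclitaxel, and 9 interactions were negative and 0 positive. Over all genes the shares called were 23.0%, 37.8% and 40.7%. Without use of the EV label, 11 partners were lower and 1 higher in all paclitaxel libraries, where 18.5% and 18.3% of all genes were.

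Of 16 tested light chains and adaptors of transport kinesins 6 rose and 5 fell in each paclitaxel comparison, with medians of 0.05 and 0.01. Counted in either direction, these shares and those of the dynein genes that follow are near the 58.2% and 62.9% called over all genes. Klc4, a kinesin light chain, was highest (1.76 ± 0.14 SE and 1.01 ± 0.13 SE). Trak2, a mitochondrial adaptor, was lowest in EV-proficient cells (-0.60 ± 0.079 SE) and Klc1, another light chain, in EV-deficient cells (-0.58 ± 0.068 SE). Between the labels 2 were higher and 2 lower under DMSO and 3 higher and 2 lower under paclitaxel, and 4 interactions were positive and 4 negative. Without use of the EV label, 3 were higher and 4 lower in all paclitaxel libraries. Cytoplasmic dynein and dynactin form the motor complex that runs towards minus ends. Of 20 of their genes 2 rose and 9 fell in EV-proficient cells, where 31.1% of all genes rose and 27.1% fell. In EV-deficient cells 5 rose and 8 fell, where 32.4% and 30.5% of all genes did. The medians were -0.12 and -0.06. Their summed level ran from 3378 to 3435 CPM in EV-proficient DMSO and from 2750 to 2833 CPM in EV-proficient paclitaxel libraries. In EV-deficient cells it ran from 3061 to 3129 CPM under DMSO and from 2919 to 3094 CPM under paclitaxel, with overlap. Dynlt3, a light chain, was highest (0.78 ± 0.076 SE and 1.39 ± 0.077 SE), and the lowest were Dynll1, another light chain, in EV-proficient cells (-0.72 ± 0.067 SE) and Dync1i1, an intermediate chain, in EV-deficient cells (-1.30 ± 0.095 SE). Between the labels 2 were higher and 5 lower under DMSO and 4 higher and 4 lower under paclitaxel, and 6 interactions were positive and 3 negative. The shares called over all genes were 23.0%, 37.8% and 40.7% in these comparisons, for the adaptors as for the dynein genes. Without use of the EV label, 2 dynein genes were higher and 6 lower in all paclitaxel libraries, and for these counts, as for the 3 and 4 adaptors, the shares of all genes were 18.3% and 18.5%.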

How the data were processed

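Polyadenylated RNA of 12 libraries in 4 groups of 3 was sequenced from dUTP stranded libraries, per the labels' protocols. Reads were aligned with STAR 2.5.0a to GRCm38, per the submitters' processing notes, and the counting program, annotation release and strand setting are not given in the sources used here. The deposited values are whole-number counts per gene, not normalized by the authors. The 2 rows that the authors added for gfp and dngfr (at most 0.00142% of a library's counts) were kept out of library sizes and tests.

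Counts were scaled by TMM and filtered with filterByExpr (minimum count 10), which left 18108 genes, and 5 comparisons were tested over all 12 libraries with edgeR 4.0.16's quasi-likelihood test (R 4.3.3), adjusted by Benjamini-Hochberg over all genes tested at a threshold of 0.05. Levels per length used the union of exons of GENCODE for GRCm38. The code was tested on simulated data. A further result on a gene that overlaps a member is not reported here. Replicates of a group differed by 4.50 to 32.3 times sampling noise (chi-square per degree of freedom), so no pair was treated as 1 library deposited again. All tested members are named, and values per library are given for the 6 mitotic and 6 transport members with the largest changes among those with a mean of at least 5 CPM. Those of Kif17, Kifc2, Kif1a, Kif5a, Kif18a, Kif6, Kif9 and Kif27, in the text or the plots, were added after their values were seen. The members and lists were chosen with earlier results of these data known. The alternatives were DESeq2 1.42.0, limma 3.58.1 voom, other scalings and filters, fits of only the groups compared, a replicate block, and each library left out in turn.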

Additional observations from a re-analysis of the deposited data

Results flagged for a closer look

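The log2 effect of paclitaxel differed between the EV labels, by the test of the difference itself, for 18 of the 40 tested members, where 40.7% of all genes tested differed. Each value here is the effect in EV-deficient cells minus that in EV-proficient cells, for the libraries as labelled. The mitotic kinesins with such a difference were all more negative in EV-deficient cells. They were Kifc5b at -1.19 ± 0.17 SE (edgeR adjusted p 8.46e-06), Kif18b at -0.90 ± 0.098 SE (edgeR adjusted p 2.1e-07) and Kifc1 at -0.60 ± 0.13 SE (edgeR adjusted p 0.000883). The smaller ones were Kif20a at -0.44 ± 0.10 SE (edgeR adjusted p 0.00174), Kif14 at -0.43 ± 0.097 SE (edgeR adjusted p 0.00104), Kif11 at -0.35 ± 0.094 SE (edgeR adjusted p 0.00499) and Kif2c at -0.35 ± 0.098 SE (edgeR adjusted p 0.00679). Among transport kinesins the response was more negative in EV-deficient cells for Kif21b at -2.74 ± 0.31 SE (edgeR adjusted p 4.38e-07), Kifc3 at -2.42 ± 0.12 SE (edgeR adjusted p 7.45e-13) and Kif17 at -1.46 ± 0.28 SE (edgeR adjusted p 0.000254). It was more positive for Kif1a at 2.16 ± 0.48 SE (edgeR adjusted p 0.00104), Kif5a at 1.68 ± 0.44 SE (edgeR adjusted p 0.00399) and Kif1b at 0.79 ± 0.098 SE (edgeR adjusted p 1.24e-06). It was also more positive for Kif16b at 0.38 ± 0.098 SE (edgeR adjusted p 0.00378) and Kif3b at 0.37 ± 0.09 SE (edgeR adjusted p 0.00212). Of the other members, Kif24 at -0.62 ± 0.14 SE (edgeR adjusted p 0.00118), Kif1bp at -0.36 ± 0.11 SE (edgeR adjusted p 0.0132) and Kif2a at -0.31 ± 0.11 SE (edgeR adjusted p 0.0238) were more negative. For Kifc3 every EV-proficient paclitaxel library lay above its DMSO libraries and every EV-deficient one below them, and Kif1b showed the reverse. With upper-quartile scaling Kif11 (-0.22), Kif2c (-0.23), Kif1bp (-0.23) and Kif2a (-0.19) did not pass the threshold. Kif2a was also lost with the filter of 1 CPM (-0.26) and without any of EV-proficient paclitaxel replicates 1 and 3 or EV-deficient paclitaxel replicates 1 and 3 (-0.28 to -0.20), and Kif1bp without EV-deficient paclitaxel replicate 3 (-0.26). Groups of 3 libraries were not tested for single libraries that stand apart.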

How the results depend on the processing

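Of the 105 calls of members over the 5 comparisons, 24 were lost in at least 1 alternative and 0 changed sign. Of the 95 values without a call, 42 changed sign and 23 gained a call in at least 1 alternative. Every reversed value below belongs to a member or partner gene that was not called. The causes of these changes were not tested. Upper-quartile scaling moved the median of all genes from 0.07 to 0.26 for paclitaxel in EV-deficient cells and from -0.04 to 0.08 for the interaction, and the share of higher calls to 63.4% and 53.9%. It moved that median between labels under paclitaxel from -0.0047 to 0.091. Calls were gained, by number of alternatives, for paclitaxel in EV-proficient cells by Kif16b in 5 (-0.20 to -0.18), Kif1a in 1 (0.98), Kif5b in 1 (0.15) and Kif6 in 4 (0.95 to 1.35); for paclitaxel in EV-deficient cells by Kif13b in 6 (-0.26 to -0.20) and Kif18a in 2 (-0.30 to -0.22). Gains between labels under DMSO were those of Kif13b in 6 (0.21 to 0.30), Kif18b in 1 (0.12), Kif27 in 1 (1.13), Kif3c in 12 (-0.28 to -0.24) and Kif5b in 2 (-0.16 to -0.15). Gains between labels under paclitaxel were those of Kif16b in 1 (0.17), Kif1c in 1 (-0.21), Kif21b in 5 (-0.70 to -0.41), Kif3c in 5 (-0.30 to -0.21) and Kif6 in 3 (0.84 to 0.97). Gains for the interaction were those of Kif13a in 6 (0.31 to 0.39), Kif15 in 3 (-0.42 to -0.39), Kif26a in 1 (-3.21), Kif4 in 1 (0.24), Kif5c in 7 (0.39 to 0.47) and Kif6 in 7 (1.47 to 1.67). Kif19a, with 3 counts in all in the EV-deficient DMSO libraries, is in these counts without its fitted values, which are not given: it changed sign in 2 comparisons and gained a call in 1, paclitaxel in EV-proficient cells without EV-proficient DMSO replicate 3. A count of 3 corresponded to 0.0492 to 0.121 CPM. With 3 libraries a group small changes were the least certain. The EV label was carried by 1 derivative line each, and an exchange of EV labels within a treatment was not tested.

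With upper-quartile scaling the values for paclitaxel in EV-proficient cells were the median of mitotic kinesins -0.3188, the median of transport kinesins 0.149, Kif21a 0.047 and Kif3b 0.0257. For paclitaxel in EV-deficient cells they were the median of mitotic kinesins -0.6275, the median of transport kinesins 0.5578, Kif18a 0.0059, Kif21a 0.0922 and Kif7 0.1109. Between labels under DMSO they were Kif18a -0.022 and Kif3a -0.0126. Between labels under paclitaxel they were 6 mitotic kinesins called, the median of transport kinesins 0.105, Kif18a 0.0033, Kif20b 0.0716, Kif21a 0.0605, Kif3a 0.0606, Kif5b 0.0556, Cenpe 0.0245 and Klc1 0.0716. For the interaction they were Kif18a 0.0254, Kif21a 0.0452, Kif3a 0.0732 and Cenpe 0.0676. Without the low-count filter the values for paclitaxel in EV-proficient cells were Kif21a 0.0149. Between labels under DMSO they were 1 mitotic kinesins called, Kif20b 0.0079, Kif4 0.0097 and Cenpe 0.0273. Between labels under paclitaxel they were Kif13b -0.0154. For the interaction they were Kif20b -0.0559, Kif23 -0.0567 and Kif3c -0.0357. With limma-voom the values for paclitaxel in EV-deficient cells were Kif26a -0.152. Between labels under paclitaxel they were Kif13b -0.0135 and Kif7 -8e-04. With median-of-ratios scaling the values between labels under DMSO were Kif18a -0.0159 and Kif3a -0.0071. With a filter of 1 CPM in 3 libraries the values between labels under DMSO were Kif18a -0.0047. Between labels under paclitaxel they were Kif20b 0.0167, Kif21a 0.0057, Kif3a 0.0057, Kif5b 6e-04 and Klc1 0.0171. For the interaction they were Kif3a 0.0012. With DESeq2 the values between labels under DMSO were Kif18a -0.0158 and Kif3a -0.0072. In fits of only the groups compared the values between labels under DMSO were Kif18a -0.0262 and Kif3a -0.0172. Between labels under paclitaxel they were Kif20b 0.0025 and Klc1 0.0017.

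For paclitaxel in EV-proficient cells, leaving out each library in turn gave the median of mitotic kinesins -0.4949 to -0.32, the median of transport kinesins 0.0085 to 0.1165, Kif13a -0.0296 to 0.1165, Kif13b -0.068 to 0.0882 and Kif21a -0.0766 to 0.0739. In the same comparison it gave Kif2a -0.0429 to 0.0698, Kif5b -0.0016 to 0.1093, Kif7 -0.1114 to 0.2558 and Kifc5b -0.1274 to 0.1645. For paclitaxel in EV-deficient cells, leaving out each library in turn gave Kif26a -0.9121 to 0.8319 and Kif26b -0.0819 to 0.2799. Between labels under DMSO, leaving out each library in turn gave 1 to 2 mitotic kinesins called, 4 to 10 transport kinesins called, 5 to 12 kinesins called, Kif11 -0.0069 to 0.0767 and Kif15 -0.0034 to 0.1258. In the same comparison it gave Kif18a -0.036 to 0.0704, Kif20b -0.0748 to 0.0201, Kif21a -0.0135 to 0.1375, Kif3a -0.0253 to 0.0318 and Kif9 -0.2495 to 0.2278. In the same comparison it gave Kifc1 -0.0015 to 0.1055 and Cenpe -0.0548 to 0.0505. Between labels under paclitaxel, leaving out each library in turn gave Kif13a -0.0838 to 0.0986, Kif13b -0.0797 to 0.0661, Kif18a -0.2052 to 0.0178, Kif20b -0.0782 to 0.0599 and Kif3a -0.0725 to 0.0077. In the same comparison it gave Kif4 -0.0971 to 0.1723, Kif5b -0.1101 to 0.0017, Kif7 -0.1362 to 0.2304, Dynll1 -0.0191 to 0.1103 and Klc1 -0.0764 to 0.0475. For the interaction, leaving out each library in turn gave Kif18a -0.1711 to 0.0516, Kif20b -0.0525 to 0.1339, Kif23 -0.0164 to 0.1168, Kif3a -0.0756 to 0.0329 and Kif3c -0.041 to 0.1649. In the same comparison it gave Kif4 -0.0245 to 0.2447, Kif7 -0.3384 to 0.0282, Kif9 -0.0471 to 0.4306 and Cenpe -0.1302 to 0.045.

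The replicate numbers of the labels did not pair the samples: the correlation of deviations between samples of the same number ran from -0.0812 to 0.0970, under the minimum of 0.1. With the replicate block 24, 33, 12, 20 and 18 members were called in the 5 comparisons, against 24, 33, 12, 18 and 18 without it. Between labels under DMSO Kif13a (-0.24) and Kif1bp (0.22) lost their calls and Kif13b (0.24) and Kif3c (-0.24) gained one, and under paclitaxel Kif21b (-0.41) and Kif3c (-0.21) gained one.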
